A study of Mus musculus with 46 samples.

Results

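The genes described here carry glucose into the cell, split it by glycolysis and export the lactate that results. They are 9 named genes, taken by symbol from the 7182 genes used of a deposited expression table: Slc2a1, Slc2a8, Hk2, Aldoa, Aldoc, Pgam1, Eno1, Ldha and Slc16a3. The study disrupted Rbbp5, a shared core subunit of the complexes that methylate histone H3 at lysine 4, in mouse zygotes. RNA was measured in 33 libraries, which fall into 8 groups of knockout (KO) and wild-type (WT) material. At embryonic day (E) 3.5, the inner cell mass (ICM) of 1 blastocyst a library gave 7 KO and 7 WT libraries. At E4.5, single cells gave 3 KO and 7 WT epiblast libraries and 2 KO and 1 WT primitive endoderm libraries. At E5.5, the epiblast of single embryos gave 3 KO and 3 WT libraries.

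The KO was made either by injecting Cas9 mRNA and guide RNA into wild-type zygotes or by injecting Cre mRNA into Rbbp5 flox/flox zygotes. The labels name neither the method behind each library nor an injection of WT zygotes, so injection and knockout cannot be told apart. ICMs were taken by immunosurgery, which lyses the outer trophectoderm, from blastocysts grown in KSOM medium. E5.5 epiblasts were dissected by hand from embryos recovered from the uterus, so stage, culture and dissection cannot be told apart. Levels are FPKM, fragments corrected for the length of the transcript and for the size of the library, so that levels of different genes can be compared per length. The level of Rbbp5 was not analysed here, and the genotypes below are those of the labels.

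Glucose enters cells through facilitative transporters of the SLC2 (GLUT) family and is trapped by hexokinase as glucose 6-phosphate. Aldolase splits the phosphorylated hexose, phosphoglycerate mutase and enolase act in the later steps, lactate dehydrogenase turns pyruvate into lactate, and monocarboxylate transporters of the SLC16 family carry lactate out. The cleavage-stage mouse embryo depends on pyruvate and lactate, glucose use increases at the blastocyst stage, and the epiblast after implantation is known for high glycolysis. Many of these genes are known targets of hypoxia-inducible factor (HIF1), which binds a short core sequence in promoters and enhancers.

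The libraries differed in ways that touch every comparison below. KO ICM libraries had 3628 to 5136 genes at 1 FPKM or more and WT ICM libraries 5110 to 5718. KO ICM 1, 4 and 6 had the fewest, at 3628, 3642 and 3883 genes. Depth, recovered as a relative value from the steps between low FPKM values of a library, was 0.85 to 1.08 in KO ICMs and 0.98 to 1.11 in WT ICMs, and it was 1.07, 1.03 and 0.95 in those 3 libraries. Results in the ICM are therefore also given without them, a choice made after the data were seen. At E5.5 the libraries of KO embryos went against their label of epiblast. Pou5f1, a factor of pluripotent cells, was at 4.57, 5.07 and 19.9 FPKM in KO E5.5 libraries, against 103, 126 and 190 FPKM in WT E5.5 libraries. Otx2, a factor of the epiblast after implantation, was at 2.38 to 24.2 FPKM in KO and 92.8 to 105 FPKM in WT. Gata3, a trophectoderm factor, was at 88.8 to 241 FPKM in KO and 0.129 to 0.596 FPKM in WT. The sum of 12 trophectoderm and extraembryonic ectoderm markers was 1968 to 3603 FPKM in KO and 101 to 150 FPKM in WT. Of these 12, 11 passed the filter on low levels and 10 were called higher in KO by limma, beside 15.6% of all genes. Gata3, Gata2, Tead4, Elf5, Krt7 and Fgfr2 reached that filter through the KO libraries alone, so their direction was not independent of it. Cdx2, a trophectoderm factor, did not pass the filter. It was at 0, 0.828 and 3.21 FPKM in KO E5.5 libraries (lowest, median, highest) and at 0 in all WT ones. Of 9 epiblast and pluripotency markers tested, 7 were called lower in KO and 1, Esrrb, higher, beside 18.5% and 15.6% of all genes. Esrrb reached the filter through the KO libraries alone, so its direction was not independent of it. Primitive endoderm marker sums were 15.5 to 26.7 FPKM in KO and 19.4 to 24.3 FPKM in WT. Visceral endoderm marker sums were 0.646 to 5.11 FPKM in KO and 2.15 to 3.48 FPKM in WT. All 3 KO E5.5 libraries carried these markers, so no comparison without them was possible, and their part in the results at E5.5 was not tested. In such bulk libraries fewer cells of a type and less RNA per cell cannot be told apart.

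The member genes lie on chromosomes 2, 4, 6, 7, 11 and 19 of GRCm38, all annotated as protein coding in RefSeq. For 4 of the 5 members that passed the test at E5.5, Slc2a1, Hk2, Ldha and Slc16a3, the 250 bases before a RefSeq start site are shown, because some of these genes were higher and others lower in the same libraries. Slc2a8 also passed, with a lower level in KO, and its window is not shown. Capitals mark the letters ACGTG or GCGTG, the core of the hypoxia response element, or their complement on the other strand (CACGT or CACGC). The Slc2a1 window is chr4:119108495-119108744 on the plus strand, the Hk2 window chr6:82774455-82774704 on the minus strand, the Ldha window chr7:46845554-46845803 on the plus strand and the Slc16a3 window chr11:120948817-120949066 on the plus strand, in GRCm38.p6 (RefSeq).
Slc2a1: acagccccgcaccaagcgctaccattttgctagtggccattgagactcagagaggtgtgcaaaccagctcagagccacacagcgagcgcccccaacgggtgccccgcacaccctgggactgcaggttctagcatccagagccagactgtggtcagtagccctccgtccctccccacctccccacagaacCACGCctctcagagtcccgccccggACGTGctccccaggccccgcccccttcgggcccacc
Hk2: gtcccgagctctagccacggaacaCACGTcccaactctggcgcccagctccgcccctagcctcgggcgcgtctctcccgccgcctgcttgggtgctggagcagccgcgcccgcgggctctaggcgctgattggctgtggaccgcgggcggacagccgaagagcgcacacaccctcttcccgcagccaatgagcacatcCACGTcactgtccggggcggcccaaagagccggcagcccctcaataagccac
Ldha: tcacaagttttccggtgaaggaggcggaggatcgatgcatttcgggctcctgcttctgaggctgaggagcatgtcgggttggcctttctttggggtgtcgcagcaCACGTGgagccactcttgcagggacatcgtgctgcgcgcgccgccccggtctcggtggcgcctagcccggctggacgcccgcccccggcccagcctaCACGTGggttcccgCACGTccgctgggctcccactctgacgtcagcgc
Slc16a3: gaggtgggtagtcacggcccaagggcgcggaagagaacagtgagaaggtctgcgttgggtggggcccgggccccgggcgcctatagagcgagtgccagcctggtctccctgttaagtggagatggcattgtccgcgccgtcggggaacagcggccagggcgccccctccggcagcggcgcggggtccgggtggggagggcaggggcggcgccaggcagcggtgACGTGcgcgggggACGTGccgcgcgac
Both strands were searched in every promoter of the RefSeq table. The letters ACGTG stood in 16.6% of 32817 promoters, GCGTG in 28.1%, and at least 1 of them in 38.6%. The Ldha window held 5 matches to ACGTG, of which 4 are the paired strands of 2 copies of the E-box CACGTG, at positions -145 and -48 from the start, and the fifth lies at -34. CACGTG, which contains ACGTG on both strands, stood in 6.02% of all promoters. The Slc16a3 window held 2 matches to ACGTG, at -27 and -14, both within 30 bases of the start. The Hk2 window held 2, at -226 and -52, and the Slc2a1 window held 1 ACGTG at -36 and 1 GCGTG at -61. Genes on either side of the E5.5 comparison thus carried the core letters, and so did members that did not pass it. Among the other members, Pgam1 had 1 ACGTG and 2 GCGTG, Slc2a8, Aldoc and Eno1 had 1 GCGTG each, and the window of Aldoa had none. GGGCGG, the GC box bound by SP factors, stood in 32.7% of all promoters and in those of Slc2a1, Hk2, Aldoc, Ldha and Slc16a3. Ldha, Aldoa, Aldoc and Eno1 have more than 1 start site in the promoter table, and only the most upstream of these was searched. For Ldha, Aldoa and Slc16a3 the site searched lies inside the RefSeq locus, whose own end was not searched. These matches describe letters in the windows and carry no measurement of binding.

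In WT embryos, 8 of the 9 members rose between the E3.5 ICM and the E5.5 epiblast and Slc2a8 fell (limma, Benjamini-Hochberg adjusted p under 0.05 over 6022 genes). Of all genes tested in WT, 37.3% rose and 18.9% fell, and the stages did not overlap for 33.8% with E5.5 higher and 15.9% with E5.5 lower. The median change of the members was 2.64 on the log2(FPKM + 1) scale, and that of all genes was 0.43. Under quantile normalization 27.5% of all genes rose and 24.7% fell, in place of the 37.3% and 18.9% above, and the same number of members, 8, rose. Under median ratio scaling 27% of all genes rose and 24.1% fell, and 7 members rose, without Hk2. Aldoc and Slc16a3 passed the filter on low levels only through the E5.5 libraries, so their rise is not independent of that filter.

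Eno1, the enolase of most cells, stood at 4093, 3609 and 4294 FPKM in WT E5.5 libraries, against a lowest value of 37.9, a median of 88.2 and a highest of 177 FPKM in WT ICMs. The stages did not overlap, and the change was 5.5 (SE 0.37, adjusted p = 8.56e-08), or 5.08 above the median of all genes. Ldha, the lactate dehydrogenase subunit that favours lactate formation, stood at 2988, 2636 and 2510.0 FPKM in WT E5.5 libraries, against 21.9, 115 and 179 FPKM (lowest, median, highest) in WT ICMs. All 3 E5.5 values lay above all 7 ICM values, with a change of 4.93 (SE 0.47, adjusted p = 1.72e-06). Slc16a3 encodes MCT4, a lactate exporter of highly glycolytic cells. It stood at 117, 130 and 101 FPKM in WT E5.5 libraries, and in WT ICMs it was listed at 0 in 6 libraries and at 0.133 FPKM in 1 (adjusted p = 1.27e-10). No fold change is given for it, because nearly all ICM values were 0.

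The changes of most other members were smaller. Aldoa, the aldolase of muscle and most embryonic cells, stood at 2517, 2022 and 2222 FPKM in WT E5.5 libraries, against 215, 345 and 653 FPKM in WT ICMs (lowest, median, highest), a change of 2.64 (SE 0.26, adjusted p = 2.04e-06). Pgam1, the phosphoglycerate mutase of most tissues, rose by 1.81 (SE 0.22, adjusted p = 1.83e-05), and Slc2a1, which encodes the glucose transporter GLUT1, by 1.62 (SE 0.27, adjusted p = 0.000207). In both genes the stages did not overlap. Aldoc, the brain-type aldolase, stood at 6.89, 7.85 and 4.70 FPKM in WT E5.5 libraries and was listed at 0 in 6 of 7 WT ICMs (adjusted p = 5.89e-07). Hk2, an inducible hexokinase that binds mitochondria, stood at 101, 101 and 69.8 FPKM in WT E5.5 libraries, against 22.7, 36.5 and 96.5 FPKM in WT ICMs. These values overlapped, and the change of 1.13 (SE 0.37, adjusted p = 0.0197) lost its call without WT E5.5 1 (adjusted p = 0.0774) or without WT E5.5 2 (adjusted p = 0.0768). It also did so under median ratio scaling, with a change of 0.74 (adjusted p = 0.119). With all 4 embryo groups in 1 fit, the calls of Hk2 (adjusted p = 0.0503) and Slc2a1 (adjusted p = 0.0714) were lost.

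Slc2a8, which encodes GLUT8, a transporter found largely on membranes inside the cell, went the other way. It stood at 5.32, 4.96 and 5.13 FPKM in WT E5.5 libraries, against 33.1, 45.6 and 68.9 FPKM in WT ICMs (lowest, median, highest). No value of one stage reached the other, and the change was -3.05 (SE 0.26, adjusted p = 6.21e-07). In WT ICMs the level of Slc2a8 was of the same order as that of Slc2a1, with means of 51.7 ± 14.6 and 59.8 ± 18.4 FPKM (SD, n = 7). In WT E5.5 libraries Slc2a1, at 178 ± 9.89 FPKM (SD, n = 3), had the higher level of the pair in every library.

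**Figure D1:**
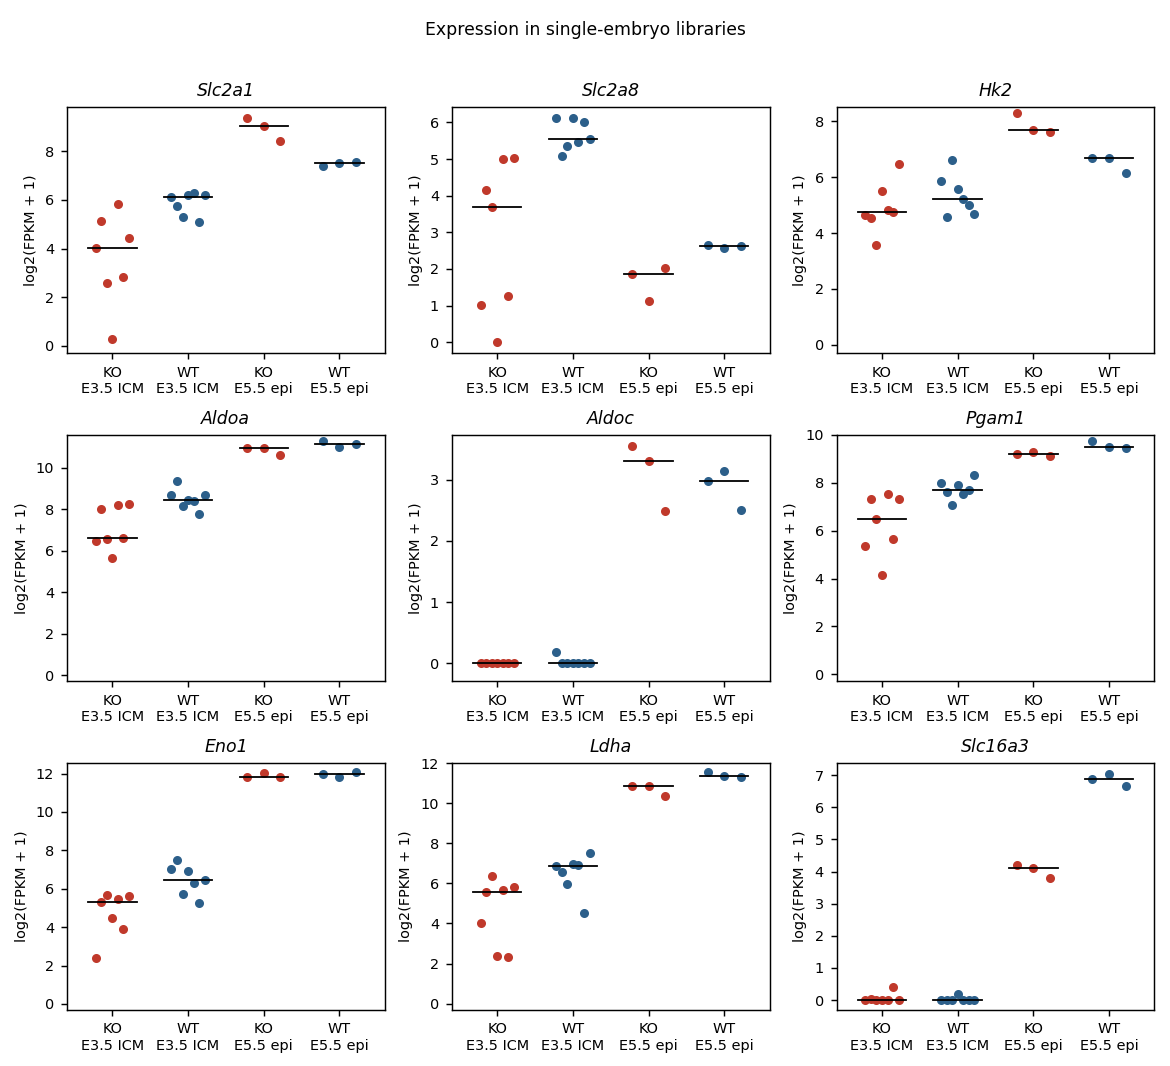
Level of each member in single-embryo libraries, as log2(FPKM + 1), with 1 point for each library, the median as a line, KO in red and WT in blue. Eno1 and Ldha lie far higher at E5.5 than at E3.5 in both genotypes, Slc16a3 starts at or near 0, Slc2a8 is lower at E5.5, and among E5.5 libraries Slc2a1 and Hk2 are higher and Slc16a3 lower in KO than in WT.

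The order of the members by level differed between stages. In KO and WT ICMs Aldoa and Pgam1 had the highest means, and Aldoc and Slc16a3 were at or near 0. Within KO ICMs no neighbouring pair in that order was separate, that is, every pair shared part of its range over libraries. In WT ICMs the only separate neighbours were Hk2, the lowest of the 7 measured genes, and the genes near 0. At E5.5 the order in KO libraries was Eno1, Aldoa, Ldha, Pgam1, Slc2a1, Hk2, Slc16a3, Aldoc and Slc2a8, and the neighbours that were not separate were Aldoa with Ldha and Pgam1 with Slc2a1. In WT E5.5 libraries it was Eno1, Ldha, Aldoa, Pgam1, Slc2a1, Slc16a3, Hk2, Aldoc and Slc2a8, where Ldha with Aldoa and Aldoc with Slc2a8 were not separate. Slc16a3 thus stood above Hk2 in WT and below it in KO.

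In the E3.5 ICM, KO libraries had lower levels of 6 of the 7 members that passed the filter: Slc2a1, Slc2a8, Aldoa, Pgam1, Eno1 and Ldha (limma, adjusted p under 0.05 over 5443 genes). None was higher, also at an unadjusted p under 0.05. Of all genes tested, 24.9% were lower and 3.44% higher. The median change of the 7 members was -1.78, beside -0.65 for all genes. Under quantile normalization 6.54% of all genes were lower and 5.95% higher with a median of -0.05, and 5 members were lower with a median of -1.33. Under median ratio scaling 8.41% of all genes were lower and 7.61% higher, and 3 members, Slc2a1, Slc2a8 and Eno1, were lower.

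Slc2a8 had the largest change of the members. Its lowest, median and highest levels were 0, 11.8 and 31.6 FPKM in KO ICMs, against 33.1, 45.6 and 68.9 FPKM in WT ICMs. It was the only member whose groups did not overlap, as was so for 3.33% of all genes with KO lower. The change was -2.79 (SE 0.67, adjusted p = 0.00781), or -2.14 relative to the median of all genes. Slc2a1 had 0.230, 15.5 and 56.0 FPKM in KO ICMs, against 33.0, 69.5 and 77.8 FPKM in WT ICMs (lowest, median, highest). Here 5 of 7 KO ICMs lay below every WT ICM, and the change was -2.26 (SE 0.62, adjusted p = 0.0136), or -1.61 relative to all genes.

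Hk2, which acts next, had 10.9, 26.1 and 87.0 FPKM in KO ICMs, against 22.7, 36.5 and 96.5 FPKM in WT ICMs. The groups overlapped over most of their range, and the change of -0.47 (SE 0.40, adjusted p = 0.371) did not pass the test and turned to 0.06 under quantile normalization and 0.08 under median ratio scaling. Its 95% interval was -1.29 to 0.36.

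Aldoa had 49.8, 96.3 and 303 FPKM in KO ICMs, against 215, 345 and 653 FPKM in WT ICMs, a change of -1.38 (SE 0.37, adjusted p = 0.0124). For Pgam1 these levels were 16.9, 89.5 and 185 FPKM in KO ICMs, against 132, 209 and 324 FPKM in WT ICMs, with a change of -1.48 (SE 0.42, adjusted p = 0.0172). In each of these genes 4 of 7 KO ICMs lay below every WT ICM, and the others overlapped with WT. Eno1 had 4.17, 38.4 and 49.9 FPKM in KO ICMs, against 37.9, 88.2 and 177 FPKM in WT ICMs, a change of -1.78 (SE 0.47, adjusted p = 0.0120). Ldha had 3.99, 46.6 and 81.6 FPKM in KO ICMs, against 21.9, 115 and 179 FPKM in WT ICMs, a change of -1.88 (SE 0.62, adjusted p = 0.0309). In Eno1 and Ldha 3 of 7 KO ICMs lay below every WT ICM. The call of Ldha was lost when any of WT ICM 1, 4, 5 or 7 or KO ICM 1, 4 or 6 was left out, with adjusted p up to 0.0689. Aldoc was listed at 0 in all 7 KO ICMs and in 6 WT ICMs. Slc16a3 was listed at 0 in 5 KO ICMs and in 6 WT ICMs, with at most 0.334 FPKM in KO and 0.133 FPKM in WT.

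The 3 KO ICMs with the fewest detected genes carried much of this difference. The median difference of the 7 members from the WT mean was -2.39, -3.57 and -2.57 in KO ICM 1, 4 and 6, and -0.83, -1.79, -0.53 and -0.64 in KO ICM 2, 3, 5 and 7. The same measure ran from -0.73 to 0.39 in WT ICMs. Without KO ICM 1, 4 and 6, Slc2a8 alone was called, with a change of -1.20 (SE 0.30, adjusted p = 0.0326), where 5.91% of all genes were lower and 1.39% higher. Slc2a1 then changed by -1.36 (adjusted p = 0.0757), Eno1 by -0.95 (adjusted p = 0.0922), Aldoa by -0.74 (adjusted p = 0.150), Pgam1 by -0.58 (adjusted p = 0.143) and Ldha by -0.62 (adjusted p = 0.362). The median of the 7 members was then -0.74, beside -0.34 for all genes. With a covariate for the number of detected genes, no member and no gene at all was called by limma. This number, counted from the same FPKM, was 3628 to 5136 in KO ICMs and 5110 to 5718 in WT ICMs. The covariate thus largely followed genotype, and the fit could not tell them apart. At an unadjusted p under 0.05 this fit had 0 members, 178 genes lower and 136 genes higher. The part of the number of detected genes in these results was not tested further. Trophectoderm marker sums were 35.1 to 230 FPKM in KO ICMs and 91.6 to 1212 FPKM in WT ICMs. Of 9 tested markers 5 were lower in KO, beside 24.9% of all genes. Without KO ICM 1, 4 and 6 the count was 2, beside 5.91% of all genes. The part of these markers was not tested.

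**Figure D2:**
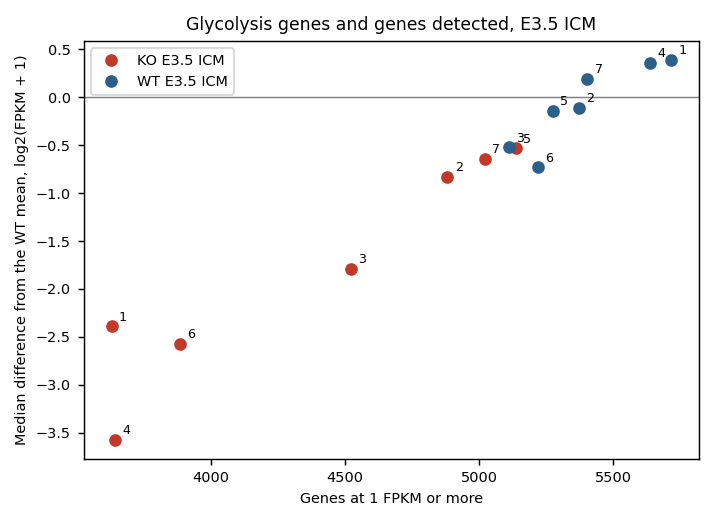
Genes at 1 FPKM or more in each E3.5 ICM library, on the x axis, against the median difference of 7 members from the WT mean on the log2(FPKM + 1) scale, on the y axis, with KO in red, WT in blue and replicate numbers beside the points. KO ICM 1, 4 and 6 have the fewest genes and the lowest medians, from -3.57 to -2.39, and KO ICM 5 and 7 lie among the lower WT libraries on the y axis.

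At E5.5 the members did not move together. Of the 9 tested, Slc2a1 and Hk2 rose and Slc16a3, Ldha and Slc2a8 fell in KO libraries (limma, adjusted p under 0.05 over 5956 genes). Of all genes tested, 15.6% rose and 18.5% fell. Under quantile normalization 17.2% of all genes rose and 20% fell, with 2 members higher and 4 lower, and under median ratio scaling 17.9% went each way, with 2 members higher and 3 lower. The median change of the members was -0.30, beside -0.07 for all genes. With all 4 embryo groups in 1 limma fit, which takes the spread of a gene over the libraries of both stages, Slc16a3 alone kept its call. The share of all genes called in that fit is not given here. Slc2a1 (1.46, adjusted p = 0.345), Hk2 (1.37, adjusted p = 0.117), Ldha (-0.71, adjusted p = 0.713) and Slc2a8 (-0.94, adjusted p = 0.646) lost theirs. Their changes were the same as with E5.5 libraries alone. All of these values stand beside the trophectoderm markers of the KO E5.5 libraries given above, whose part was not tested.

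Slc2a1 stood at 668, 518 and 340 FPKM in KO E5.5 libraries, against 168, 180 and 187 FPKM in WT E5.5 libraries. All KO values lay above all WT values, 2.74-fold higher on the FPKM + 1 scale (log2 change 1.46, SE 0.22, adjusted p = 0.00126). Hk2 stood at 312, 207 and 196 FPKM in KO E5.5 libraries, against 101, 101 and 69.8 FPKM in WT E5.5 libraries. The groups did not overlap here either, with a 2.59-fold higher level in KO (log2 change 1.37, SE 0.22, adjusted p = 0.00151). Among all genes, 22.6% had groups that did not overlap with KO higher, and 26.6% with KO lower.

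Slc16a3 stood at 17.6, 16.5 and 13.0 FPKM in KO E5.5 libraries, against 117, 130 and 101 FPKM in WT E5.5 libraries. It had the largest change of the members, a 7.04-fold lower level in KO (log2 change -2.81, SE 0.20, adjusted p = 8.22e-06). The RefSeq locus of Slc16a3 overlaps the end of Csnk1d, a casein kinase gene, and SMART-seq2 does not mark strand, so reads of the overlap cannot be told apart. Csnk1d had 12.3 to 14.3 FPKM in KO E5.5 libraries and 14.6 to 21.4 FPKM in WT E5.5 libraries, a change of -0.31 that did not pass the test (adjusted p = 0.313). Ldha stood at 1874, 1841 and 1315 FPKM in KO E5.5 libraries, against 2988, 2636 and 2510.0 FPKM in WT E5.5 libraries. The groups did not overlap, with a 1.63-fold lower level in KO (log2 change -0.71, SE 0.16, adjusted p = 0.00703). Slc2a8 stood at 2.64, 1.18 and 3.11 FPKM in KO E5.5 libraries, against 5.32, 4.96 and 5.13 FPKM in WT E5.5 libraries. Its change of -0.94 (SE 0.30, adjusted p = 0.0355) lost its call without WT E5.5 1 (adjusted p = 0.116), WT E5.5 2 (adjusted p = 0.101), WT E5.5 3 (adjusted p = 0.0947) or KO E5.5 2 (adjusted p = 0.0841).

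The 4 members that act between hexokinase and lactate dehydrogenase, Aldoa, Aldoc, Pgam1 and Eno1, did not pass the test at E5.5. Eno1 stood at 3627, 4207 and 3666 FPKM in KO E5.5 libraries, against 4093, 3609 and 4294 FPKM in WT E5.5 libraries. Its change of -0.06 (adjusted p = 0.737) had a 95% interval of -0.33 to 0.21 and was 0.01 under median ratio scaling. Aldoa stood at 1977, 1939 and 1579.6 FPKM in KO E5.5 libraries, against 2517, 2022 and 2222 FPKM in WT E5.5 libraries. Every KO value lay below every WT value, but the change of -0.30 (95% interval -0.61 to 0.01, adjusted p = 0.125) did not pass and was 0.00 under quantile normalization. Pgam1 stood at 592, 631 and 547 FPKM in KO E5.5 libraries, against 847, 713 and 689.6 FPKM in WT E5.5 libraries, without overlap (log2 change -0.34, adjusted p = 0.0850), and it passed under quantile normalization with a change of -0.42 (adjusted p = 0.0255). Aldoc stood at 10.8, 8.90 and 4.58 FPKM in KO E5.5 libraries, against 6.89, 7.85 and 4.70 FPKM in WT E5.5 libraries, with overlap (log2 change 0.24, adjusted p = 0.610). RefSeq names processed copies of Aldoa, Pgam1 and Ldha, and Eno1 has a near-identical gene copy, so the levels of these 4 genes are uncertain where reads could be split between copies.

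**Figure D3:**
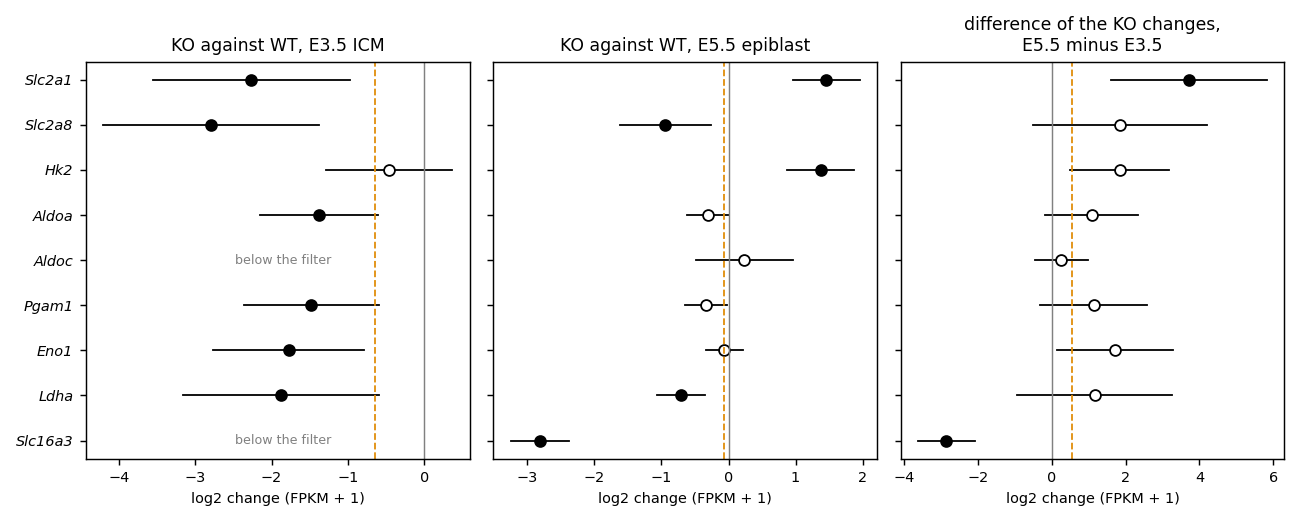
Change in KO against WT in log2(FPKM + 1) for each member in the E3.5 ICM and at E5.5, and the difference of these changes, with 95% intervals as lines. Filled points passed an adjusted p of 0.05 and the dashed line is the median of all genes: 6 members are lower in KO ICMs, and at E5.5 Slc2a1 and Hk2 lie above 0 and Slc2a8, Ldha and Slc16a3 below it.

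The change in KO differed between the stages for 2 members, tested as an interaction over all 20 embryo libraries. For Slc2a1 the change at E5.5 exceeded that in the ICM by 3.72 (SE 1.02, adjusted p = 0.0174), and for Slc16a3 it was lower by a difference of -2.85 (SE 0.37, adjusted p = 1.68e-05). Of all genes, 10.6% had a higher and 3.38% a lower change at E5.5, with a median difference of 0.56, and 6.88% and 5.68% under quantile normalization. The difference for Slc2a1 was 2.81 (adjusted p = 0.00876) without KO ICM 1, 4 and 6, where 9.91% of all genes had a higher and 4.5% a lower change, and it lost its call without KO E5.5 1 (3.50, adjusted p = 0.0619) and at a pseudocount of 0.1 (4.06, adjusted p = 0.0651). The difference for Slc16a3 rests on an ICM level at or near 0 in both genotypes. Hk2 had a difference of 1.84 (95% interval 0.50 to 3.18, adjusted p = 0.0606), which passed without WT ICM 2 (adjusted p = 0.0453) or KO ICM 7 (adjusted p = 0.0144). For Slc2a8, Aldoa, Aldoc, Pgam1, Eno1 and Ldha the difference did not pass, with values between 0.26 for Aldoc and 1.85 for Slc2a8, and that of Ldha was 1.17 with all libraries and -0.09 without KO ICM 1, 4 and 6.

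KO embryos were also compared between stages, with samples shared with the comparisons above. In KO, 8 of 9 members rose between the ICM and E5.5 and none fell (limma, adjusted p under 0.05 over 5604 genes, 0 lower also at an unadjusted p under 0.05), where 39.8% of all genes rose and 8.67% fell. Under quantile normalization the shares of all genes were 17.8% and 15.3%, and 8 members rose, and under median ratio scaling they were 19.5% and 13.6%, with 8 members higher. Aldoc and Slc16a3 passed the filter on low levels through the KO E5.5 libraries alone, so their rise is not independent of it. The median change of the members was 3.72 in KO, beside 1.08 for all genes. Eno1 rose by 7.22 (SE 0.59, adjusted p = 1.74e-06), Ldha by 6.10 (SE 0.80, adjusted p = 6.93e-05), Slc2a1 by 5.34 (SE 0.90, adjusted p = 0.000406) and Hk2 by 2.97 (SE 0.49, adjusted p = 0.000336). Slc2a8 changed by -1.20 (SE 1.03, adjusted p = 0.339), and without KO ICM 1, 4 and 6 it fell by 2.79 (adjusted p = 0.000451), with the other 8 members still called higher. Without these libraries 39.8% of all genes rose and 12.2% fell.

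At E4.5 the labels name no embryo for the single cells, so each group counts as 1 sample and no test was made. The cells were read against markers of their labels. Nanog, a factor of the epiblast, was at 222 to 725 FPKM in KO epiblast cells and 59.6 to 253 FPKM in WT epiblast cells, and under 1 FPKM in all 3 primitive endoderm cells. Gata4, an endoderm factor, was at 25.1 and 77.5 FPKM in KO primitive endoderm cells and 75.1 FPKM in the WT primitive endoderm cell, and under 1 FPKM in all epiblast cells. Pou5f1 did not separate the labels, at 322 and 616 FPKM in KO primitive endoderm cells and 732 FPKM in the WT one, beside 514 to 1211 FPKM in KO epiblast cells and 588 to 1191 FPKM in WT epiblast cells. Gata6, another endoderm factor, was at 17.0 and 27.4 FPKM in KO primitive endoderm cells and at 1.68 FPKM in the WT one. Sums of visceral endoderm markers, which are listed at 0 and 0.271 FPKM in the KO primitive endoderm cells, were 849.7 FPKM in the WT one. Genes at 1 FPKM or more numbered 3026 to 3628 in KO epiblast cells and 3878 to 4682 in WT epiblast cells.

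In epiblast cells the means of 7 of the 9 members were at least 2-fold lower in KO on the FPKM + 1 scale, where 34.5% of 5872 genes were at least 2-fold lower and 19.7% at least 2-fold higher. Aldoc and Slc16a3, counted among the 7, reached the filter of 1 FPKM through the WT cells alone, so their direction was fixed by it. The median log2 ratio of means was -1.80 for the members and -0.23 for all genes. Eno1 stood at 73.9, 40.0 and 123 FPKM in KO epiblast cells, against 242, 1318 and 1639 FPKM (lowest, median, highest) in WT epiblast cells. Pgam1 stood at 158, 158 and 149 FPKM in KO epiblast cells, against 235, 470.4 and 678 FPKM in WT epiblast cells. In these 2 genes every KO cell lay below every WT cell, as for 3.99% of all genes. The log2 ratios of means were -3.79 for Eno1 and -1.46 for Pgam1.

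Ldha stood at 153, 72.6 and 291 FPKM in KO epiblast cells, against 163, 1121 and 1336 FPKM in WT epiblast cells (log2 ratio of means -2.46). WT epiblast cell 1, at 163 FPKM, was the only WT cell below the highest KO cell. Slc16a3 was listed at 0 in 2 KO cells and at 0.0835 FPKM in 1, against 0, 25.9 and 107 FPKM in WT epiblast cells, where cell 1 alone was at 0. Aldoc was listed at 0 in all 3 KO cells and in WT epiblast cells 1 and 2, with 10.3 to 98.7 FPKM in the other 5 WT cells. WT epiblast cell 1 also had the lowest levels of Slc2a1, Hk2, Aldoa, Eno1 and Ldha among the WT cells. Slc2a1 stood at 67.3, 41.2 and 0.216 FPKM in KO epiblast cells, against 30.7, 98.8 and 402 FPKM in WT epiblast cells (log2 ratio of means -1.80). Hk2 stood at 23.2, 44.1 and 3.60 FPKM in KO epiblast cells, against 20.8, 72.6 and 95.2 FPKM in WT epiblast cells (log2 ratio of means -1.43). In both genes KO epiblast cell 3 was the lowest of all epiblast cells. Aldoa and Slc2a8 were within 2-fold, with log2 ratios of means of -0.33 and 0.84. That of Slc2a8 was 1.09 by medians over cells, 1.15 without KO epiblast cell 3 and 1.59 without WT epiblast cell 3, which puts it more than 2-fold higher in KO. That of Hk2 was -0.94 without KO epiblast cell 3.

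Between primitive endoderm cells, 2 KO cells stood against a single WT cell. Their relative depth, recovered among the single cells, was 2.21 and 2.01 in the KO cells and 1.27 in the WT cell. Genes at 1 FPKM or more numbered 3093 and 3279 in the KO cells and 3414 in the WT cell. Of the 8 members with a mean of at least 1 FPKM, 6 were at least 2-fold lower in KO, where 26.8% of 4695 genes were lower and 42.4% higher by that fold. Slc2a1 reached the filter through the WT cell alone. It stood at 0.266 and 0.364 FPKM in the KO cells and 78.0 FPKM in the WT cell. Ldha stood at 40.0 and 249 FPKM in the KO cells and 1381 FPKM in the WT cell. Hk2 stood at 21.7 and 7.38 FPKM in the KO cells and 94.9 FPKM in the WT cell. Both KO cells thus lay below the WT cell, as they did for Aldoa, at 347 and 3.53 FPKM in KO and 704 FPKM in WT, for Pgam1 and for Eno1. For 32.6% of all genes both KO cells lay below the WT cell. Aldoc was at 0 and 43.4 FPKM in the KO cells and 0.0974 FPKM in the WT cell, so its higher KO mean comes from 1 cell, and Slc2a8 was at 81.3 and 23.6 FPKM in the KO cells and 43.3 FPKM in the WT cell.

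**Figure D4:**
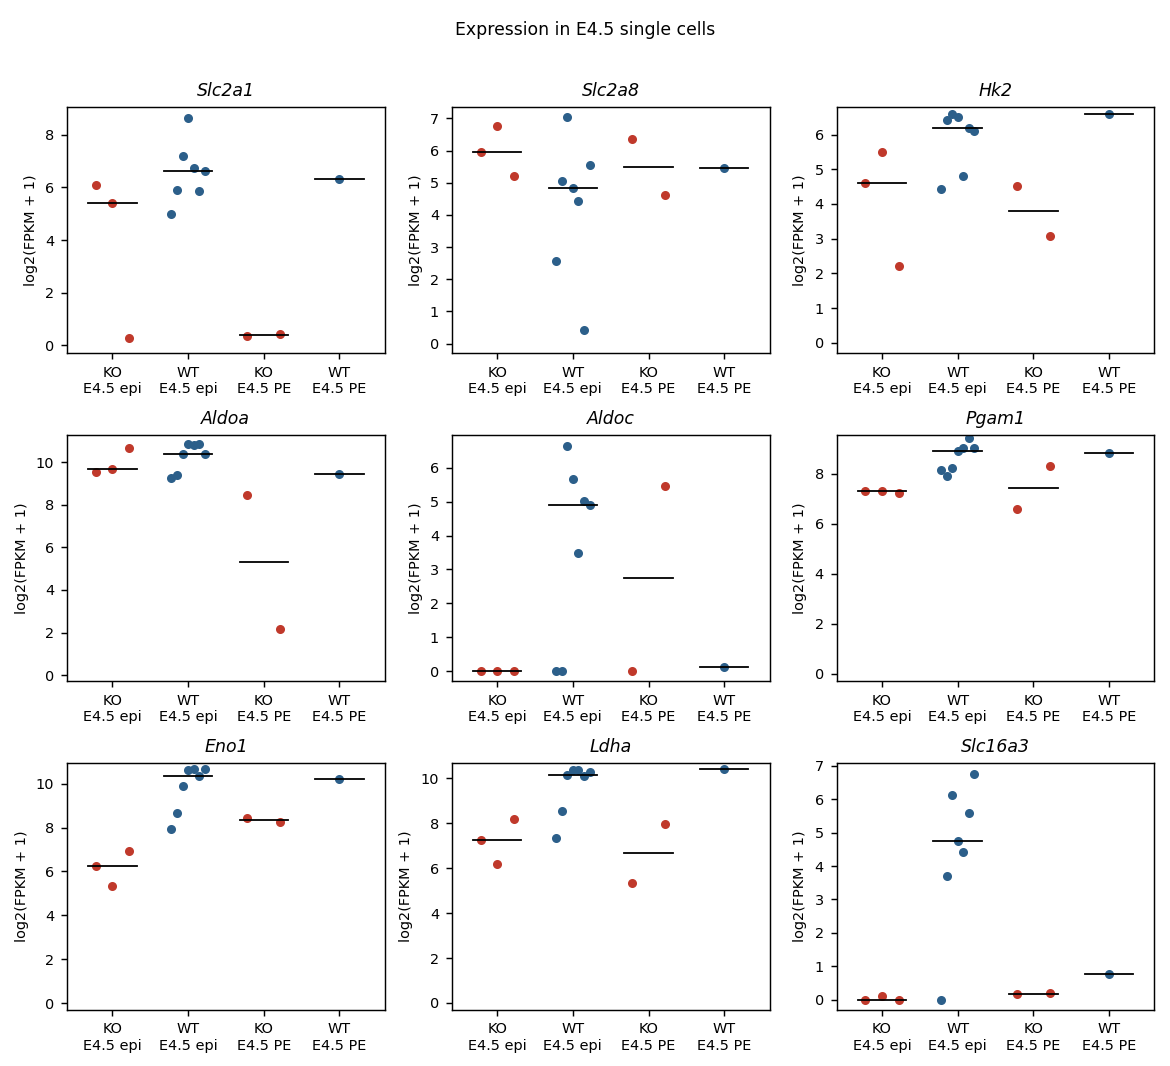
Level of each member in single E4.5 cells, as log2(FPKM + 1), with 1 point for each cell, the median as a line, KO in red, WT in blue and PE for primitive endoderm. KO epiblast cells lie below all WT epiblast cells for Pgam1 and Eno1, and Aldoc and Slc16a3 are at or near 0 in the KO epiblast cells and spread up to 98.7 and 107 FPKM in the WT ones.

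Other genes of the pathway and of its neighbours came from lists of known members. Of 47 listed genes of glycolysis and of glucose or lactate transport outside the 9 members, 18 were among the genes used and 13 were tested in the ICM. There 6 were lower in KO and none higher (also none higher at an unadjusted p under 0.05), with a median of -1.33, beside 24.9% lower over all genes. Only 1 of the 13 was called lower under quantile normalization, and 1 under median ratio scaling. Bsg, which encodes basigin, the chaperone that brings monocarboxylate transporters to the cell surface, averaged 94.9 ± 62.6 FPKM in KO ICMs and 250.4 ± 52.6 FPKM in WT ICMs (SD, n = 7 each), a change of -1.67 (adjusted p = 0.00451). Pgk1, the phosphoglycerate kinase that makes ATP in glycolysis, changed by -1.92 (adjusted p = 0.0305) and Emb, which encodes embigin, another such chaperone, by -1.76 (adjusted p = 0.0342). Without KO ICM 1, 4 and 6 the call of Bsg remained (adjusted p = 0.0317), as the only 1 of this list, while Pgk1 had an adjusted p of 0.289 and Emb of 0.395. The count of 6 also depended on single libraries, and it was 1 without WT ICM 1 or 4 or KO ICM 1, 4 or 6, 2 without WT ICM 2 or 7 and 3 without KO ICM 3.

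At E5.5 the same list split as the members did, with 6 of 14 tested genes higher and 4 lower in KO, beside 15.6% and 18.5% of all genes. Pgk1 averaged 920.1 ± 352 FPKM in KO and 555 ± 28.9 FPKM in WT (SD, n = 3 each), a change of 0.66 (adjusted p = 0.0462). Bsg was higher by 0.61 (adjusted p = 0.0297). Emb was lower, at 95.5 ± 51.9 FPKM in KO and 257 ± 66.4 FPKM in WT (SD, n = 3 each), a change of -1.59 (adjusted p = 0.0327). Named after their values were seen, Slc2a3, which encodes the glucose transporter GLUT3, was higher by 1.70 (adjusted p = 0.0464), and Ldhb, the lactate dehydrogenase subunit that favours pyruvate formation, was lower by a change of -2.81 (adjusted p = 0.0180). The 10 calls fell to 2 without WT E5.5 1 or 3, 3 without WT E5.5 2 and 4 without KO E5.5 1. By the interaction, 2 of 14 tested genes of this list had a higher change in KO at E5.5 and 0 a lower one, beside 10.6% and 3.38% of all genes. They were Bsg (2.28, adjusted p = 0.0124) and Hk1 (2.24, adjusted p = 0.00381), a hexokinase of most tissues. Hk1 was below the filter in the ICM, with means of 0.273 FPKM in KO and 1.49 FPKM in WT. It entered the interaction through the E5.5 libraries, so its difference is not independent of the filter and rests on low ICM levels.

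Of a list for pyruvate use in mitochondria, the 7 genes tested in the ICM were subunits of the pyruvate dehydrogenase complex or its kinases. In KO ICMs 5 of these, all subunits of the complex, were lower (0 higher, also at an unadjusted p under 0.05). Over all genes 24.9% were lower and 3.44% higher. The count was 2 under quantile normalization and 1 under median ratio scaling. Pdhx, which tethers one of its enzymes, changed by -1.99 (adjusted p = 0.00503) and was the only gene of the list called without KO ICM 1, 4 and 6 (-1.62, adjusted p = 0.0317). Of 9 genes of this list tested at E5.5, 1 was higher and 2 were lower in KO, beside 15.6% and 18.5% of all genes. Pdhb, a subunit of the dehydrogenase itself, was higher, and Pdk1 and Pdk3, kinases that switch the complex off, were lower. Pdk1 averaged 22.5 ± 5.51 FPKM in KO E5.5 libraries and 51.6 ± 4.89 FPKM in WT E5.5 libraries (SD, n = 3 each), a change of -1.19 (adjusted p = 0.00301). Of 20 genes of the TCA cycle, which burns what pyruvate dehydrogenase supplies, 13 were lower and none higher in KO ICMs (none higher at an unadjusted p under 0.05), beside 24.9% lower and 3.44% higher over all genes. In KO ICMs 5 were lower without KO ICM 1, 4 and 6, 7 under quantile normalization (1 higher at an unadjusted p under 0.05), and 5 under median ratio scaling, where 1 was higher. At E5.5 8 of the 20 were higher and none lower in KO (none lower at an unadjusted p under 0.05), beside 15.6% and 18.5% of all genes. The count of 8 was 3 without WT E5.5 1 or 2 and 5 without KO E5.5 1. Of 4 tested genes of the pentose phosphate pathway, 2 were lower in KO ICMs (Pgd and Taldo1) and 2 at E5.5 (Pgd and Tkt), beside 24.9% and 18.5% of all genes. None of the 4 was higher at either stage, also at an unadjusted p under 0.05. Of 6 tested genes of glycogen and hexosamine metabolism, 3 were lower in KO ICMs, beside 24.9% of all genes. At E5.5 2 were higher, beside 15.6% of all genes, among them Ogt, which attaches GlcNAc to proteins (0.94, adjusted p = 0.0203). In the ICM no gene of either list was called without KO ICM 1, 4 and 6, under quantile normalization or under median ratio scaling.

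For HIF1 response genes outside glycolysis, calls went both ways. In KO ICMs 3 of 15 tested were higher and 4 lower, beside 3.44% and 24.9% of all genes. Without KO ICM 1, 4 and 6, 2 were higher and 1 lower, beside 1.39% and 5.91% of all genes. None of the 15 was called lower under quantile normalization (2 higher, and 0 lower at an unadjusted p under 0.05) or under median ratio scaling (3 higher). Mif, a cytokine gene, averaged 2363 ± 511 FPKM in KO ICMs and 1264 ± 182 FPKM in WT ICMs (SD, n = 7 each), a change of 0.88 (adjusted p = 0.00232), and at E5.5 it was lower in KO (-0.76, adjusted p = 0.00187). Higd1a, a mitochondrial protein gene, was higher in KO at both stages, by 1.16 (adjusted p = 0.00326) and 0.91 (adjusted p = 0.00312). Egln2, a prolyl hydroxylase that marks HIF for decay, was lower in KO at both, with changes of -1.29 (adjusted p = 0.0110) and -1.27 (adjusted p = 0.00691). At E5.5 7 of 18 tested were higher and 4 lower in KO, beside 15.6% and 18.5% of all genes. The 7 were Egln1, Ndrg1, P4ha1, P4ha2, Adm, Higd1a and Ero1l, and the 4 were Hif1a, Egln2, Egln3 and Mif. Ndrg1, named after its value was seen, averaged 186 ± 67.8 FPKM in KO E5.5 libraries and 1.18 ± 0.335 FPKM in WT E5.5 libraries (SD, n = 3 each), a change of 6.37. Of 8 regulators linked to glycolysis tested in the ICM, 2 were lower and 0 higher in KO, beside 24.9% and 3.44% of all genes. Of 9 tested at E5.5, 2 were higher and 2 lower, beside 15.6% and 18.5% of all genes. Usf1, an E-box factor, was lower in KO at both stages (-2.79, adjusted p = 0.00399 in the ICM, and -2.19, adjusted p = 0.000160 at E5.5). Akt1, a kinase of growth factor signalling, was lower in KO ICMs (-1.12, adjusted p = 0.0410) and higher in KO E5.5 libraries (1.22, adjusted p = 0.0174). Without KO ICM 1, 4 and 6 its change in the ICM was -0.72 (adjusted p = 0.313). Mlx, which pairs with glucose-responsive factors, was higher at E5.5 (0.98, adjusted p = 0.00586). Lin28a, an RNA-binding protein gene of pluripotent cells, was lower at E5.5, at 5.18 ± 3.74 FPKM in KO and 43.2 ± 3.66 FPKM in WT (SD, n = 3 each). The trophectoderm markers given above rose in the same KO E5.5 libraries, and their part in these counts was not tested.

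**Figure D5:**
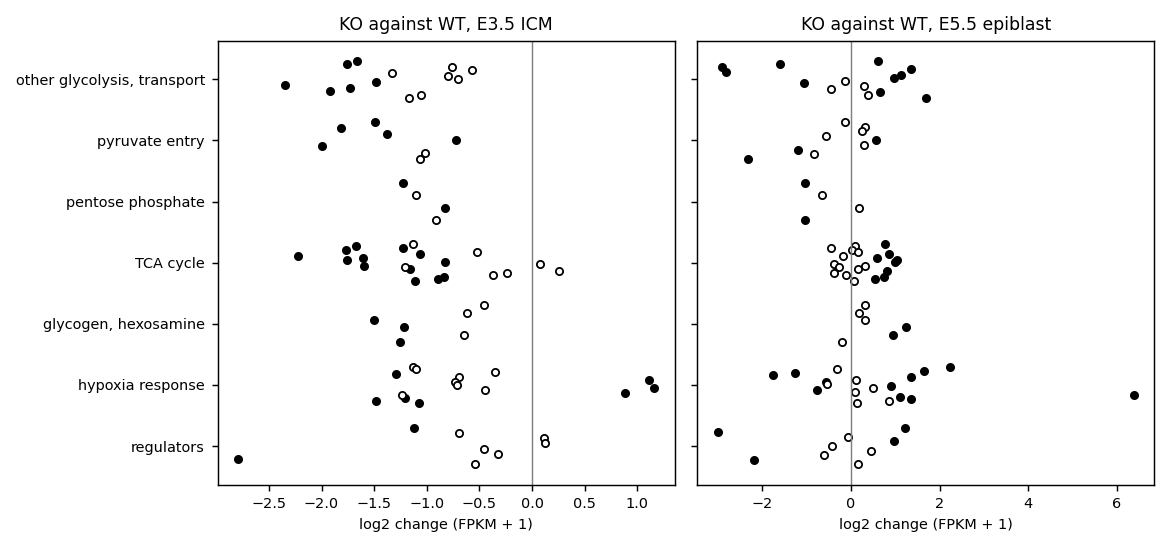
Change in KO against WT in log2(FPKM + 1) of each tested gene in 7 lists of neighbouring pathways, in the E3.5 ICM and at E5.5, with filled points for an adjusted p under 0.05. In the ICM called genes lie below 0 except 3 of the hypoxia response list, and at E5.5 they lie on both sides, with Ndrg1 at 6.37.

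Across the 20 embryo libraries the pattern most like the mean z-score of the 9 members, among 3770 other genes, was that of Pgk1 (Pearson r = 0.981), followed by Seh1l (0.972), Pdia3 (0.969), G2e3 (0.967) and Ddx42 (0.966). These libraries share stage and genotype groups, and the values are a description of likeness. Each member is itself part of that mean, which raises its r, so members and other genes cannot be compared by it. Among the members themselves Aldoa lay nearest to that mean (r = 0.986), Hk2 (0.771) and Slc16a3 (0.841) farther from it, and Slc2a8 did not follow it (r = -0.058).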

How the data were processed

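Per the labels' protocols, SMART-seq2 cDNA was made into libraries with Tn5. The authors deposited FPKM in a table of 7186 lines. The names of 2 genes stood on 4 lines, which were left out. Per the submitters' processing notes, the tools were STAR 2.7.3, Bowtie2 2.3.5, Bismark, HOMER 4.10.4, MACS2 2.2.6 and Trim Galore 0.6.4, with the mm10 build, and none is tied to a data type. The program that made the FPKM, and how reads shared between gene copies were counted, are not given in the sources used here. H3K4me3, ATAC and methylation data were not used here.

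FPKM keeps no total depth. Low values of a library are whole multiples of what 1 fragment of that gene is worth, and pairs of libraries with a common step (145 of 190 embryo pairs, within 0.02 on the log2 scale) gave relative depths. Genes whose mean reached 1 FPKM in the libraries compared were fitted on log2(FPKM + 1) with limma 3.58.1 in R 4.3.3 (trend, robust) and Benjamini-Hochberg adjustment over all genes tested at 0.05. The pseudocount of 1 understates changes of low genes. Replicates are single embryos per the labels. The genes called separate, or not overlapping, share no part of their range over libraries. Sequences came from a RefSeq promoter table of GRCm38.p6. The 9 genes, the lists and the comparisons were chosen with earlier results of these data known. Of each other list, up to 3 genes with the smallest p in the ICM are named, and any others were named after their values were seen. The values of 1 gene so chosen are not reported here. For likeness, genes whose mean reached 5 FPKM were ranked. The settings varied were the pseudocount (0.1 or 5), the filter (none or 5 FPKM), the scaling (quantile or median ratio), the replicate number as a block, all 4 embryo groups in 1 fit, medians over cells, and leaving out each library or cell. Fits without KO ICM 1, 4 and 6 or with a covariate for detected genes were added after the data were seen.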

Additional observations from a re-analysis of the deposited data

Results flagged for a closer look

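A library stood apart from its group, by its gap to the nearest library as a share of the whole range, in 5 of 26 groups of 4 to 10 libraries examined. For normally distributed values chance flags about 1 in 20 groups. The values used were untransformed FPKM, for which that rate was not checked. It does not hold for the 3 groups with nearly all libraries at 0, those of Aldoc and Slc16a3 below. Slc2a1 was at 402 FPKM in WT epiblast cell 4, and the next highest WT epiblast cell had 147 FPKM. Slc2a8 was at 130.3 FPKM in WT epiblast cell 3, with 46.0 FPKM in the next highest. Aldoc was at 0.137 FPKM in WT ICM 1, and the other WT ICMs were listed at 0. Slc16a3 was at 0.334 FPKM in KO ICM 6, with 0.0267 FPKM in the next highest KO ICM, and at 0.133 FPKM in WT ICM 4, with the others at 0.

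The change in KO differed between E5.5 and the ICM for Slc2a1 by 3.72 and for Slc16a3 by -2.85 on the log2(FPKM + 1) scale, by the interaction term of limma (adjusted p = 0.0174 and 1.68e-05). The libraries of KO E5.5 embryos that carry trophectoderm markers enter both values.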

How the results depend on the processing

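The count of 6 members called in KO ICMs was 3 under median ratio scaling, and 5 to 6 when each library was left out. In fits chosen after seeing the data it was 1 without KO ICM 1, 4 and 6, and 0 in limma with a covariate for detected genes (0 also at an unadjusted p under 0.05). That covariate largely followed genotype, so the fit could not tell them apart. The count of 5 at E5.5 was 1, Slc16a3, with all 4 embryo groups in 1 fit and 4 to 5 when each library was left out. The count of 2 for the difference between stages was 1 at a pseudocount of 0.1 and 1 to 3 when each library was left out. Leaving out each library gave 8 to 9 members called between stages in WT and 8 in KO, and leaving out each cell gave 7 to 8 members at least 2-fold apart in epiblast cells and 6 in primitive endoderm cells. The filters of 5 FPKM and none kept every count of members within 1.5 times of its value. In the ICM, Hk2 turned to 0.06 under quantile normalization and 0.08 under median ratio scaling, and under the covariate Slc2a8 turned to 0.11, Pgam1 to 0.28, Ldha to 0.26, Emb to 0.19 and Pgk1 to 0.38. At E5.5 Aldoa turned to 0.00 under quantile normalization and Eno1 to 0.01 under median ratio scaling. The difference for Ldha turned to -0.09 without KO ICM 1, 4 and 6, and the log2 ratio of means of Aldoc in primitive endoderm cells was -0.13 without KO cell 2, the only cell above 1 FPKM, and 5.34 without KO cell 1. The causes of the other changes were not tested.

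With the replicate number as a block, 6 members were called in the ICM and 5 at E5.5, as without it, and calls over all genes in the ICM were 1059 lower and 162 higher, against 1353 and 187 without it. Same-numbered libraries did not deviate together, with correlations of -0.133 to 0.155 in the ICM and -0.022 to 0.118 at E5.5. As a hint from the data, 1 of 7 KO ICMs and 2 of 3 KO E5.5 libraries correlated best with the WT library of their number. Total depth is unknown, and with 3 libraries a group at E5.5 and no embryo named for the cells, small changes could not be separated from the spread.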
